A study of Drosophila melanogaster with 6 samples.

Results

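Genes of the proteasome were followed in stage 14 oocytes of *Drosophila melanogaster*, the mature stage that precedes laying, in a comparison of GFP control oocytes with oocytes that expressed InR-DN. Members were all rows of the authors' deposited table whose names begin with Rpn or Rpt and a digit, with Prosalpha or Prosbeta, or with Pros and a digit, which gave 44 of 14862 genes. Of these, 32 were general subunits and 12 were variant paralogues, whose names carry an R or a T after the subunit number.

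Each group had 3 samples, and a sample was a pool of 200 oocytes from flies grown on standard food with yeast paste. The InR gene encodes the insulin receptor, and InR-DN serves the submitters as a means of suppressing the insulin pathway. The labels give no driver for the GFP and InR-DN transgenes, no age of the females and no strain. Embryos are named in the title of the authors' deposited table and progeny in the InR-DN descriptions, while all 6 samples have stage 14 oocytes as their source.

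The proteasome is the protease that degrades proteins tagged with ubiquitin. Its core particle is a barrel of alpha rings, which form the gate, and beta rings, which hold the cutting sites inside. The regulatory particle caps the barrel with a base, whose Rpt ATPases unfold the substrate, and a lid, which removes ubiquitin. An oocyte loads its RNA for the early embryo, and regulated degradation drives meiosis and the handover from mother to embryo. Several subunits have second copies in *Drosophila*, many of them known from the male germline.

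The columns of the authors' deposited table hold fold changes on the log2 scale, averages as log2 CPM (reads scaled to library size), likelihood ratios, p-values and adjusted p-values, with nothing per sample. The table does not state which group is the numerator, so fold changes are given by their sign alone. Which libraries enter the average is not stated either, so it describes the authors' fit and is not known to be a level of either group. Genes with a deposited adjusted p under 0.05 are referred to as called, and tested genes are the 13080 with a likelihood ratio above 0. An implied SE was obtained as the size of the log2 fold change over the square root of the likelihood ratio, and 95% intervals were taken from it on the normal scale. Depth per sample is unknown, and the implied SE rests on the authors' model rather than on a spread measured between samples.

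One of the 37 tested members was called, the variant ATPase gene Rpt3R, with a negative fold change. The background over all tested genes of the authors' deposited table was 5.1% called, 2.48% with a negative and 2.61% with a positive fold change. A single call among 37 members is 2.70%, next to 5.1% of tested genes called in either direction and 2.48% called negative. Members with an unadjusted p under 0.05 also numbered 1, against 11.4% of tested genes. The general subunits and the paralogues differed in both average and precision and are described apart.

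Of the 31 tested general subunits 0 were called and 0 had an unadjusted p under 0.05 in the authors' likelihood ratio test. Their log2 fold changes ran from -0.11 to 0.16 with a median of 0.04, next to 0.03 over all tested genes, and 20 were positive and 11 negative. The lowest unadjusted p was 0.41. An interval could be formed for 29 of them, and all 29 stayed inside a 2-fold change in each direction. The widest of these intervals reached 1.69-fold and 20 of the 29 stayed under 1.5-fold.

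**Figure D1:**
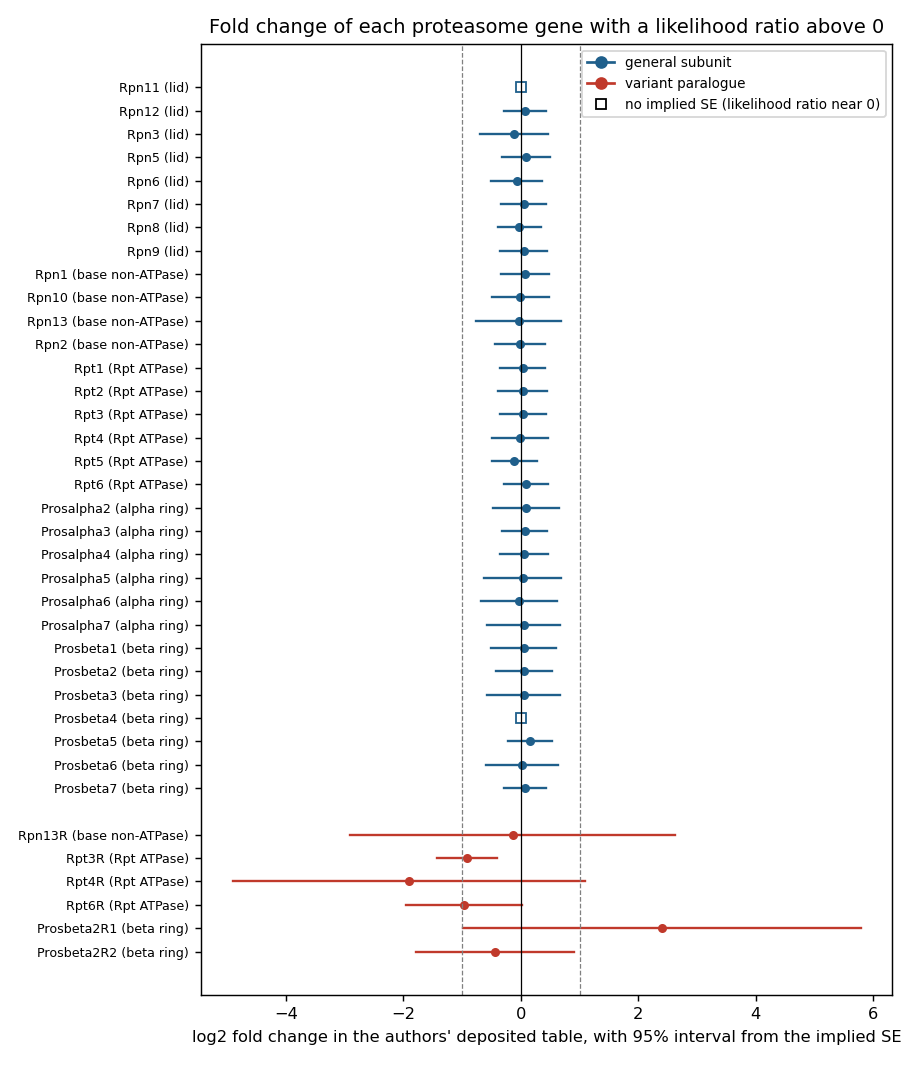
Log2 fold change (x axis) of the 37 members with a likelihood ratio above 0, with 95% intervals from the implied SE and dashed lines at a 2-fold change. The 31 general subunits lie between -0.11 and 0.16, and of the 6 variant paralogues 5 are negative, with only the interval of Rpt3R clear of 0.

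Among lid subunits the spread was from Rpn3 to Rpn5. Rpn3, a scaffold subunit, stood at -0.11 (implied SE 0.30) per the authors' deposited table. Rpn5, another scaffold subunit, was at 0.09 (implied SE 0.21). Rpn6, which clamps the lid to the core and had the highest lid average at 8.31 log2 CPM in the authors' deposited table, stood at -0.07 (implied SE 0.22). The fold change of Rpn11, the enzyme that cuts ubiquitin from the substrate, was -4.4e-04, too near 0 for an SE to be implied.

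In the base, the non-ATPase subunits ran from -0.04 for Rpn13 to 0.07 for Rpn1 in the authors' deposited table. Rpn13 is a ubiquitin receptor and had the widest implied SE of all general subunits, 0.37, while Rpn1, which docks shuttle proteins, had one of 0.21. Rpn2, the scaffold that holds Rpn13, had the highest average of all members at 8.45 log2 CPM and stood at -0.02 (implied SE 0.22) per the authors' deposited table. Of the 6 general ATPase genes, Rpt5 was lowest at -0.11 and Rpt6 highest at 0.09, each with an implied SE of 0.19. Rpt2, with the highest average among them at 8.02 log2 CPM in the authors' deposited table, stood at 0.03 (implied SE 0.21). All of these values were smaller than their own implied SE.

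In the core particle the log2 fold changes ran from -0.03 to 0.16, next to -0.11 to 0.09 in the regulatory particle. In the alpha ring Prosalpha6 was lowest and had the highest average, standing at -0.03 (implied SE 0.33) and 7.89 log2 CPM in the authors' deposited table. Prosalpha2 was highest in that ring at 0.09 (implied SE 0.28). In the beta ring Prosbeta5, which carries the chymotrypsin-like cutting site, had both the highest fold change and the highest average. It stood at 0.16 (implied SE 0.19, adjusted p of 1 by the authors' likelihood ratio test) and 7.69 log2 CPM in the authors' deposited table, the largest size of change among the general subunits. The other cutting subunits, Prosbeta1 and Prosbeta2, were both at 0.05, with implied SE of 0.29 and 0.24. Prosbeta4 was lowest at -0.0016, where no SE could be implied. Positive values numbered 11 of 13 tested core subunits and 9 of 18 tested regulatory subunits, a difference that was not tested. Among the 1206 other tested genes with averages in the range of the general subunits, 749 were positive.

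The general subunits were set beside the 1206 other tested genes whose averages fell in their range, 7.01 to 8.45 log2 CPM. In that range 0.323% of genes were called and 2.59% had an unadjusted p under 0.05, members included, so that 0 calls among 31 genes is near the background. The SD of the log2 fold changes was 0.06 among the general subunits and 0.26 among the other genes. The latter takes in extreme values, from -3.89 to 2.96. By the median size of the log2 fold change the contrast was smaller, 0.05 against 0.09. Of the other genes, 75.1% had a fold change no larger than the largest general subunit. The median implied SE was 0.21 for the general subunits and 0.22 for the others. The fold changes of the general subunits were thus closer to each other than their implied SE, while the single-gene precision was close to that of the other genes. The bulk of the other genes shared this trait. Their interquartile range of 0.16 and median size of 0.09 were also below their median implied SE, and their 5th to 95th percentiles ran from -0.17 to 0.32. Subunits of one complex are not independent of each other, and no test was made of the difference in spread.

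**Figure D2:**
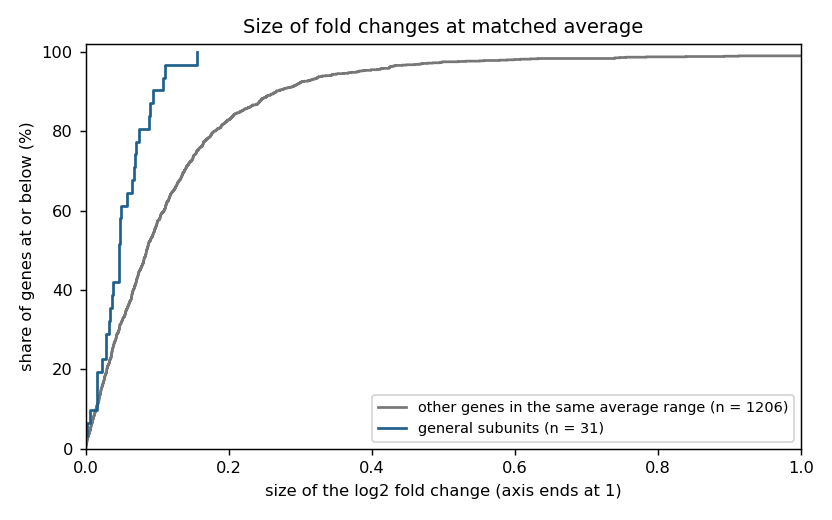
Share of genes (y axis, %) with a log2 fold change no larger in size than the value on the x axis, for 31 general subunits and for 1206 other tested genes with averages in the same range. All general subunits are at or below 0.16, a size that 75.1% of the other genes do not exceed.

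Averages of the general subunits were close to each other once divided by transcript length. Lengths and exon counts are those of the canonical transcripts of the Ensembl annotation, to which all 44 members matched by name. The 31 tested general subunits lay between 6.46 (Rpn13) and 7.88 (Prosalpha5) in average log2 CPM per kilobase, with an SD of 0.36, and each stood above at least 92.6% of tested genes. Core subunits had a median of 7.46 and regulatory subunits one of 7.01 on that scale. Their ranges overlapped, from 7.11 to 7.88 in the core and from 6.46 to 7.62 in the regulatory particle. Core transcripts were shorter, with a median of 973 bases against 1534, and their median implied SE was 0.28 against 0.21. Across the 29 general subunits with an SE, it ran against log2 transcript length with a Pearson r of -0.37 and a Spearman rho of -0.28, given as a description across genes that share all libraries. The same quantities were -0.21 and -0.14 across 1155 other genes in the range.

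Prosalpha1, a subunit of the alpha ring, was the exception among the general subunits. The authors' deposited table lists it with both its fold change and its likelihood ratio at 0 and with an average of -3.74 log2 CPM, where the lowest average of any gene is -3.80. Its neighbour on the same strand, listed as CG30382 and named Prosalpha1R in RefSeq, has the same values in the authors' deposited table. Both genes have 4 exons and encode 244 residues in the Ensembl annotation. In all, 10 genes share that average, so the match alone does not single out the pair. Whether reads that fit both genes were left out of the authors' counts was not tested, and Prosalpha1 is reported here as uncertain rather than as low.

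**Figure D3:**
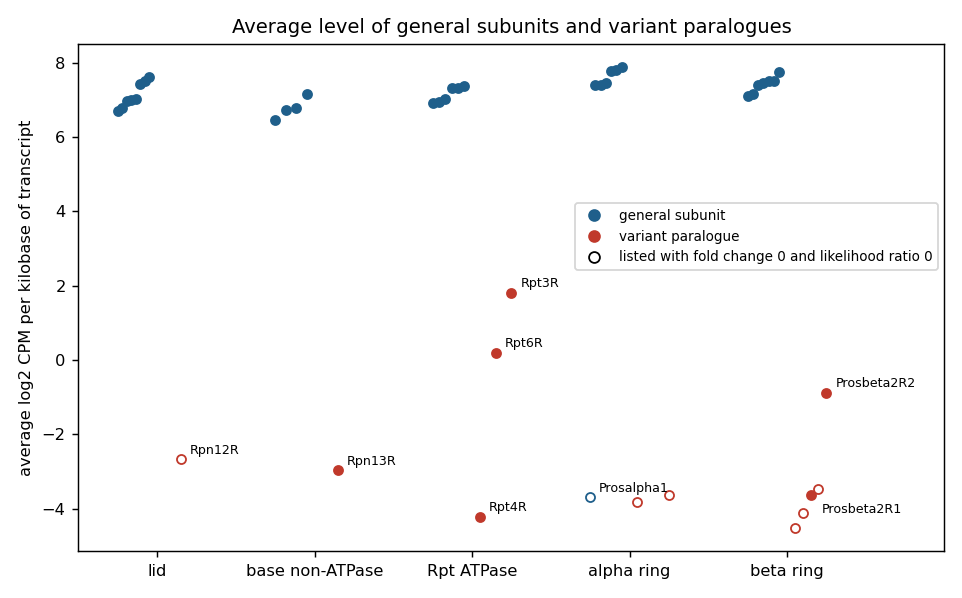
Average log2 CPM per kilobase of canonical transcript (y axis) for all 44 members by subcomplex. The tested general subunits lie between 6.46 and 7.88, every variant paralogue lies at 1.80 or below, and open circles mark the 7 members listed at 0 for both fold change and likelihood ratio, among them Prosalpha1.

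All 12 variant paralogues had lower averages than the general subunit of the same number. Only 6 had a likelihood ratio above 0, and the other 6 were listed at 0 for both fold change and likelihood ratio. On the per-kilobase scale the smallest gap was that of Rpt3R, at 1.80 against 7.03 for Rpt3, a difference of 5.23 on the log2 scale. Next came Rpt6R, at 0.20 against 7.38 for Rpt6, and Prosbeta2R2, at -0.88 against 7.46 for Prosbeta2. The remaining 9 had averages of -2.76 log2 CPM or below in the authors' deposited table, close to the lowest value it holds. No ratio of averages is given for them.

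Rpt3R was the one called member. It encodes a second version of Rpt3, an ATPase of the base. Its log2 fold change in the authors' deposited table was -0.91 (implied SE 0.26, 95% interval -1.42 to -0.40), with a p of 4.7e-04 and an adjusted p of 0.014 by the authors' likelihood ratio test. The general gene Rpt3 stood at 0.04 (implied SE 0.20), which leaves a difference of -0.95 with an SE of 0.33 if the errors of both genes are independent, which could not be checked. The average of Rpt3R was 2.32 log2 CPM in the authors' deposited table, and among the 973 tested genes within 1 log2 unit of that average 10.4% were called and 3.19% were called with a negative fold change. Of these 973 genes, 17.1% had a fold change at least as large in size, so fold changes of that size were common at that average. With p adjusted over tested genes of average 0 log2 CPM or more Rpt3R stayed the single called member, next to 1.56% of those genes called negative, and over all tested genes likewise, next to 2.55%. At an adjusted p under 0.01 no member passed the authors' likelihood ratio test, next to 3.75% of tested genes.

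Exons of Rpt3R overlap those of Alg12, a gene of protein glycosylation on the opposite strand. The library kit named in the labels keeps the strand, but the labels do not say whether the authors' counts used it. Alg12 stood at 0.20 (implied SE 0.27) with an average of 4.12 log2 CPM in the authors' deposited table, a higher average with the opposite sign. The nearest genes on either side, Tti1 and Mpi, stood at -0.06 and 0.14 (implied SE 0.26 and 0.23) per the authors' deposited table and were not called.

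Rpt6R, a second version of the ATPase Rpt6, had a log2 fold change of much the same size, -0.96, but was not called (implied SE 0.51, p = 0.056 and adjusted p = 0.54 by the authors' likelihood ratio test). Its 95% interval ran from -1.96 to 0.03, and its average was 0.73 log2 CPM in the authors' deposited table. Within 1 log2 unit of that average 15.5% of 1171 tested genes were called, and 7.09% with a negative fold change. Both neighbours of Rpt6R also had negative values. CG9702 was called at -3.49 (implied SE 0.96, adjusted p of 0.0089 by the authors' likelihood ratio test) and CG9717 was at -1.09 (implied SE 0.64) per the authors' deposited table. Both had low averages, -1.13 and -2.23 log2 CPM in the authors' deposited table, and their part in the value of Rpt6R was not tested.

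The third variant ATPase, Rpt4R, was at -1.90 (implied SE 1.53, p = 0.21 by the authors' likelihood ratio test) with an average of -3.63 log2 CPM in the authors' deposited table. Its fold change is one of a series of repeated values: 280 other tested genes had a log2 fold change within 0.01 of it, of which 225 had averages below -2. All 3 variant ATPases carried a negative sign, 1 of them called, but the intervals of Rpt4R and Rpt6R hold 0, so their signs are not settled. Of 4930 other tested genes with averages in the range of the tested variants, 2219 were negative and 264 were called negative. The general genes Rpt3, Rpt4 and Rpt6 stood at 0.04, -0.02 and 0.09 per the authors' deposited table. Intervals of the variants were wider than those of the general genes in each case, and that of Rpt4R spanned -4.91 to 1.10.

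**Figure D4:**
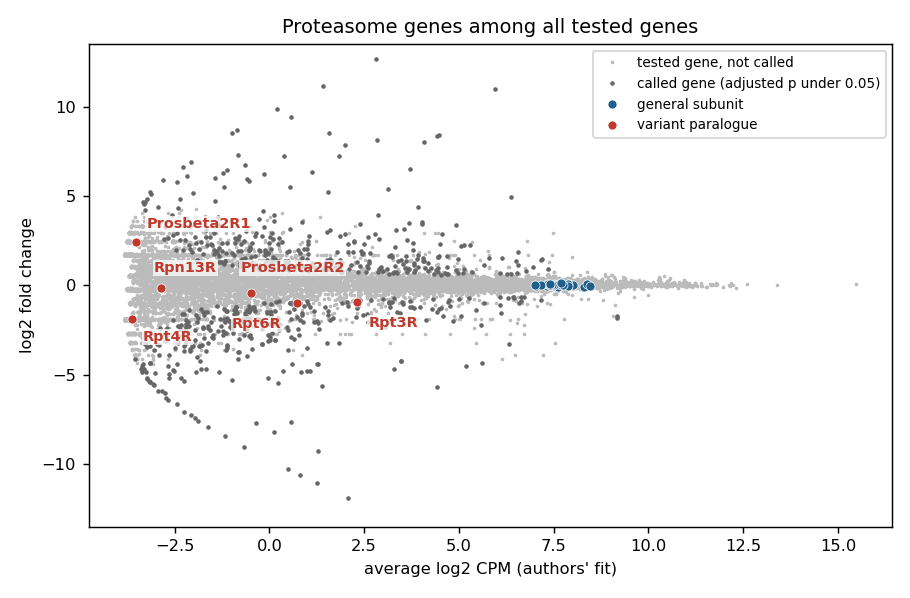
Log2 fold change (y axis) against average log2 CPM (x axis) for all tested genes, with called genes in dark grey. General subunits lie at averages of 7.01 to 8.45 in the narrow part of the cloud, and the 6 tested variant paralogues at 2.32 or below, where fold changes of all genes scatter widely.

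The other tested variants were not called and had wide errors. Prosbeta2R2, a copy of the beta subunit with the trypsin-like cutting site, was at -0.44 (implied SE 0.69) with an average of -0.48 log2 CPM in the authors' deposited table. Its sister copy Prosbeta2R1 had the sole positive value of the 6, at 2.40 (implied SE 1.73), with an average of -3.53 log2 CPM in the authors' deposited table. Rpn13R, a copy of the ubiquitin receptor Rpn13, was at -0.14 (implied SE 1.41) with an average of -2.85 log2 CPM in the authors' deposited table. None of the 6 intervals lay within a 2-fold change in both directions. The median over the 6 was -0.68, and 5 of them were negative. Over 4930 other tested genes with averages in the same range the median was 0.14 with an SD of 1.61, and 2219 were negative.

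Rpn12R, Prosalpha4T1, Prosalpha6T, Prosbeta4R1, Prosbeta4R2 and Prosbeta5R2 made up the 6 with a likelihood ratio of 0. Prosalpha6T is known in *Drosophila* as a testis subunit needed for male fertility. The averages of 5 of them lay between -3.80 and -3.49 log2 CPM in the authors' deposited table, and that of Rpn12R, a copy of the lid subunit Rpn12, was higher at -2.76. No change can be read for these genes. RefSeq holds 3 further variant symbols that match the same pattern, Prosalpha3T, Prosalpha4T2 and Prosbeta5R1, which were not analysed here.

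The paralogues differed from the general genes in structure as well. In 9 of 12 pairs the general gene had more exons in its canonical transcript, in 3 both had the same number and in none did the variant have more. A single exon was found in 5 of 12 variants and in 4 of 32 general genes, against 13.9% of all protein-coding genes of the table. Among other tested genes the share was 26.9% in the average range of the tested variants and 4.65% in that of the general subunits. Protein lengths stayed close in the ATPases, with 405 residues in Rpt3R against 413 in Rpt3, 398 in Rpt4R against 397 in Rpt4 and 399 in Rpt6R against 405 in Rpt6. Rpn13R was shorter than Rpn13, with 324 against 424 residues, and Prosbeta2R2 longer than Prosbeta2, with 322 against 272. Pairs lay on different chromosome arms in 8 of 12 cases. In all 4 pairs with the general gene on the X chromosome, which are those of Rpt3, Rpt4, Rpt6 and Prosalpha4, the variant was on an autosome. Of the 8 pairs with an autosomal general gene, the variants Rpn13R and Prosbeta2R1 were on the X, which holds 15.8% of the protein-coding genes of the table.

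Overlap between genes touched the general subunits too. No share over all genes was taken for comparison, so the counts are not read as a trait of either class. Exons of 13 of 32 general genes and 2 of 12 variants overlapped those of another gene in the Ensembl annotation. One such partner was called: CG1801, on the opposite strand to Rpt6, at 1.98 (implied SE 0.44, adjusted p of 3.3e-04 by the authors' likelihood ratio test) with an average of -0.13 log2 CPM in the authors' deposited table. Rpt6 itself, with an average of 7.87 log2 CPM per the authors' deposited table, was not called.

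The wider ubiquitin system likewise held no call. Of 73 names in 5 lists, 72 different genes were found and tested, and 0 were called or had an unadjusted p under 0.05 in the authors' likelihood ratio test, against 5.1% and 11.4% of all tested genes. In the range of the general subunits, 7.01 to 8.45 log2 CPM, those shares were far lower, 0.323% and 2.59%. List medians of the average lay between 6.37 and 8.08 log2 CPM. Only the ubiquitin and activating enzyme list had its median in that range. The medians of the other lists lay below it, and no share was taken at their averages. The list of 19 regulators and assembly factors was a broad one that also held genes such as cnc, maf-S, Pngl and Ube3a. Its median was 0.01. The lowest value was -0.28 for Uch-L5, a ubiquitin hydrolase of the regulatory particle. The highest was 0.36 for ntc, an F-box gene needed in sperm differentiation, in the authors' deposited table. The gene cnc encodes a transcription factor whose vertebrate relatives induce proteasome genes, and it was at 0.09 (implied SE 0.20) per the authors' deposited table. The 9 ubiquitin and activating enzyme genes had a median of -0.03, and the polyubiquitin gene Ubi-p63E was highest at 0.38 (implied SE 0.35) per the authors' deposited table. Medians were 0.01 for 9 genes listed under p97 and the shuttles, -0.03 for 21 cullin, SCF and signalosome genes and -0.05 for 14 genes of the anaphase-promoting complex. Of the latter, cort, the activator used in female meiosis, was at -0.06 (implied SE 0.24) per the authors' deposited table.

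Outside the proteasome, too, the wide values in these lists were those of genes with low averages. The 69 genes at an average of 0 log2 CPM or more ran from -0.28 to 0.38. The 3 below it, named after their values were seen, were skpB at -1.14, Roc1b at -1.40 and CG10694, a relative of Rad23, at 1.75 in the authors' deposited table. Their implied SE were 0.66, 1.65 and 1.62.

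**Figure D5:**
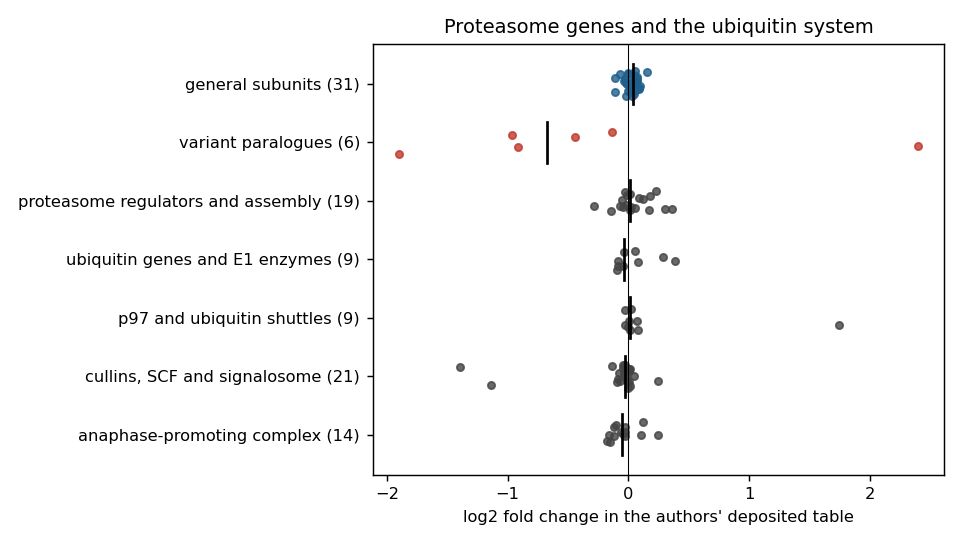
Log2 fold change (x axis) of tested general subunits, variant paralogues and genes of 5 lists of the ubiquitin system, with the number of genes in brackets, 1 point per gene and a black bar at each median. Points beyond 1 in size are variant paralogues or the 3 listed genes with averages below 0 log2 CPM.

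Marker lists were read beside these values. All 8 female germline markers were tested, with averages of 3.11 to 9.76 log2 CPM in the authors' deposited table, with 0 called and 0 at an unadjusted p under 0.05. The 6 follicle cell markers had higher averages, 8.30 to 12.31 log2 CPM in the authors' deposited table, with no call. Their median implied SE was 0.51 and only 2 of the 6 intervals stayed inside a 2-fold change, so equal amounts in both groups are not shown. Gut markers, 6 of 6, were called with positive log2 fold changes of 4.39 to 8.55 in the authors' deposited table, the sign opposite to that of Rpt3R. Of 12 male germline names 10 were found. Among them sa, nht and dj had a likelihood ratio of 0, and of the 7 tested genes 4 were positive, 3 were negative and none was called. Averages of all 10 ran from -3.69 to 4.77 log2 CPM in the authors' deposited table. The highest was that of S-Lap1, which stood at 1.70 with an implied SE of 1.56. With so wide an error at that average, it is not read as a level in these oocytes. Next were bam and mia at 4.33 and 4.18 log2 CPM, with implied SE of 0.44 and 0.30. The testis tubulin gene betaTub85D had the lowest p of the 7 tested genes, at 1.03 (implied SE 0.41, p = 0.012 and adjusted p = 0.19 by the authors' likelihood ratio test) per the authors' deposited table. The part of other tissues in the value of Rpt3R was not tested. In pooled oocytes, fewer cells of a type and less RNA per cell cannot be told apart.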

How the data were processed

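RNA of 6 pools of 200 oocytes was sequenced. FastQC, Bowtie and TopHat appear in the submitters' processing notes with no version, and the counter, build and annotation behind the table are not stated there. Per the labels, RNA was polyA selected, although the kit they name is one for stranded total RNA. Per the file headers, the one deposited table holds per gene the authors' fold change as log2, average as log2 CPM, likelihood ratio score and p-values, raw and adjusted. Its title names a likelihood ratio test between 2 groups. The deposited p-values differed from those of a chi-square distribution with 1 degree of freedom by at most 6.4e-15, and the adjusted ones from a Benjamini-Hochberg adjustment over all 14862 genes by at most 3.6e-15. The table holds no values per sample, so the planned count test was not used, no gene was tested anew, and depth is unknown. Whether the pools are separate crosses is not stated in the labels. The p-values rest on the authors' model, and whether they reflect a spread between crosses is unknown.

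Implied SE were formed for likelihood ratios above 1e-04, with intervals of 95% and, as an alternative, 99%. How often such intervals hold the true value was not tested on read counts, since the table holds none. The normal scale is thus an assumption, also for genes with low averages. Genes were matched to the Ensembl BDGP6 annotation (14699 of 14862 names) and RefSeq (Release 6 plus ISO1 MT) by symbol or synonym for names, exons and order. Coordinates are not given because the authors' build is unknown. The planned promoter motif search was not run.

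Members and lists were chosen with earlier results of these data known. The text names every tested variant with its general gene and every member with p under 0.05. In each subcomplex it names the general subunits with the lowest fold change, the highest fold change and the highest average. Scripts ran in Python 3.11.15 with numpy 2.4.6, pandas 2.3.3 and scipy 1.17.1, and figures were drawn with matplotlib 3.10.9.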

Additional observations from a re-analysis of the deposited data

How the results depend on the processing

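The negative call of Rpt3R was kept with p adjusted over the 8645 genes of average log2 CPM 0 or more (adjusted p = 0.015 by Benjamini-Hochberg on the authors' likelihood ratio test) and over the 13080 tested genes (adjusted p = 0.012). At an adjusted p under 0.01 the count of called members moved from 1 to 0, since the deposited adjusted p of Rpt3R is 0.014. The count of positive calls was 0 under each of these settings and at an unadjusted p under 0.05. Intervals of 99% left all 29 general subunits within a 2-fold change and 0 variants. The median average of the variants was -3.51 log2 CPM over all 12 and -1.66 over the 6 with a likelihood ratio above 0, and their median log2 fold change went from -0.68 to -0.94 over the 2 with an average of 0 log2 CPM or more and to -0.71 relative to the median of all tested genes. For the general subunits the medians of average and fold change went from 7.61 to 7.62 and from 0.04 to 0.01 at most. No general subunit was found under another name only, so that alternative gave no value. Leaving out each replicate was not run. No paired analysis was possible because values of single samples were not analysed here. Low averages limit the variants: 9 of 12 lie at -2.76 log2 CPM or below.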

Other observations

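Rpn12R was listed at 0 for fold change and likelihood ratio, yet its average in the authors' deposited table, -2.76 log2 CPM, was above the lowest of -3.80. Of the 1782 genes with a likelihood ratio of 0, 399 or 22.4% had an average at least as high. One of them is ind, the gene next to Rpn12R, which is active in the early nervous system of the embryo and had an average of 3.73 log2 CPM in the authors' deposited table. All 1782 had averages above that lowest value. Which libraries enter the average was not tested. For such genes it cannot be read as a level in the 2 groups compared, and for all other genes it is not known to be one.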
